A study of Rattus norvegicus with 8 samples.

Results

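The urea cycle and the breakdown of amino acids were examined in rat liver through 45 member genes, chosen by name from the pathway and found on the arrays by matching each probe's accession to RefSeq symbols. Of these, 42 had a probe among 15154 symbols on the array, and 41 were tested among 15204 genes and features. Slc25a13, Gldc and Uroc1 had no probe matched here, and Slc25a15 was well above background on 2 of 8 arrays and was not tested. All 41 tested members were well above background on all 8 arrays. Adult male Sprague-Dawley rats ate a control diet, or that diet with potassium perfluorooctanesulfonate (PFOS, a fluorinated surfactant) at 50 mg/kg, for 28 days. Each group held 4 rats with 1 array each, and the labels name separate animals, so p-values reflect the spread between rats. Replicate numbers follow the order of deposit and pair nothing. Liver RNA was labelled with Cy5 and a commercial pool of rat RNA, the common reference, with Cy3 on every array, with no dye swap. The question asked of these genes was whether their messenger RNA differed between the diets, in the log2 ratio of Cy5 to Cy3 and in each channel alone. A ratio or level belongs to its probe and is compared between rats, never between genes. Some members were dim, although well above background. Before background correction their Cy5 signals were 154 to 822 units for Aass, 116 to 408 for Acmsd, 132 to 3640 for Sds and 162 to 288 for Bcat2. The median local background in Cy5 was 71 to 75.5 units on the arrays.

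The liver is the main site where amino acids beyond the need for protein are broken down. Aminotransferases move the amino group to glutamate, glutamate dehydrogenase and glutaminase release it as ammonia, and the urea cycle of periportal hepatocytes turns ammonia into urea for excretion, while perivenous hepatocytes capture what remains as glutamine. The carbon skeletons enter gluconeogenesis, ketone body formation or the citric acid cycle, and many of the enzymes respond to glucagon, glucocorticoids, fasting and dietary protein. Lower messenger RNA of several of these enzymes after agonists of the fatty acid receptor PPARα is known in rodents.

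The promoter windows of Aass and Tat are shown because Aass was the member called in the liver channel and Tat had the next smallest adjusted p there. Each window runs from 250 bases before to 50 bases after the gene start, 5′ to 3′ on the gene's strand, from RefSeq on GRCr8. Capitals mark CCAAT on either strand and, in Aass, TGACG, the core of the cyclic AMP response element.
Aass, chr4:52628762-52629061, minus strand: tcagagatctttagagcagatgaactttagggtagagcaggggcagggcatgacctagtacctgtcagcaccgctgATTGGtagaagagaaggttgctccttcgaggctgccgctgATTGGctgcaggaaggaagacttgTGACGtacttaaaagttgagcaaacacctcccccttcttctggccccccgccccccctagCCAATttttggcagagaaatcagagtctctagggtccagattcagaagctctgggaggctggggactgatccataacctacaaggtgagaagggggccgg
Tat, chr19:54856354-54856653, plus strand: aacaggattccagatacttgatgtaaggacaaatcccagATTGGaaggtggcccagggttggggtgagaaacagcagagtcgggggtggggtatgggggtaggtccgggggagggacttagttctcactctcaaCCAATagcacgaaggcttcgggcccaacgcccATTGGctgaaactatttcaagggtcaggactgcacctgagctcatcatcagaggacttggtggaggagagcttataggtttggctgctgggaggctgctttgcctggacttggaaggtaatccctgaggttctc
Counted from the gene start, CCAAT began at -174, -134 and -50 in the Aass window and TGACG at -110. The Tat window held CCAAT at -211, -116 and -84. Windows were found for 37 of the 45 members. CCAAT, searched on both strands, was present in 22 of the 37 and in 37.5% of 33469 windows of the same length. TGACG was in 7 of the 37 and 21.2% of all windows, and its palindrome TGACGTCA in 0 and 1.83%. TATAAA was in 5 of the 37 and 14.2% of all windows, and the HNF4 motif CAAAGTCCA in 2 (Cps1 and Kmo) and 0.391%. A match describes letters in these windows and not a bound site, and TGACG lies within TGACGTCA.

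Among all genes and features, 604 were called between PFOS and control in the ratio (limma, Benjamini-Hochberg adjusted p under 0.05), or 3.97%, with 1.83% higher and 2.14% lower. None of the 41 members was called in the ratio. At an unadjusted limma p under 0.05 there were 7 members (Aass, Tat, Bckdha, Nags, Gpt, Sds and Acmsd), against 19.9% of all genes. In the Cy5 channel alone, which holds the liver RNA without the reference, 720 genes (4.74%) were called, 2.39% of all genes higher and 2.34% lower. One of the called genes was a member: Aass, the first enzyme of lysine breakdown, rose. In that channel 14 members had an unadjusted p under 0.05, against 20.4% of all genes. The median log2 change of the members was 0.06 in the ratio and 0.11 in Cy5, beside -0.01 and -0.00 for all genes tested. In the ratio 26 of 41 members lay above 0, against 47.7% of all genes, and in Cy5 27 of 41, against 49.8%. The 95% interval of the ratio's change stayed within 2-fold in either direction for 34 of 41 members, against 93.7% of all genes (in Cy5 34 of 41, against 95.4%), and within 1.5-fold for 27, against 78.8%. The intervals that reached past 2-fold were those of Ass1, Tat, Acmsd, Sds, Gpt, Oat and Aass. Control and PFOS rats did not overlap in the ratio for Nags, Bckdha and Aass, 3 of 41 members, against 12.8% of all genes. In Cy5 they did not overlap for Otc, Nags, Hgd, Bckdha and Aass, 5 of 41, against 13.1%. These are bulk liver samples, in which fewer cells of a type and less RNA per cell cannot be told apart.

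**Figure D1:**
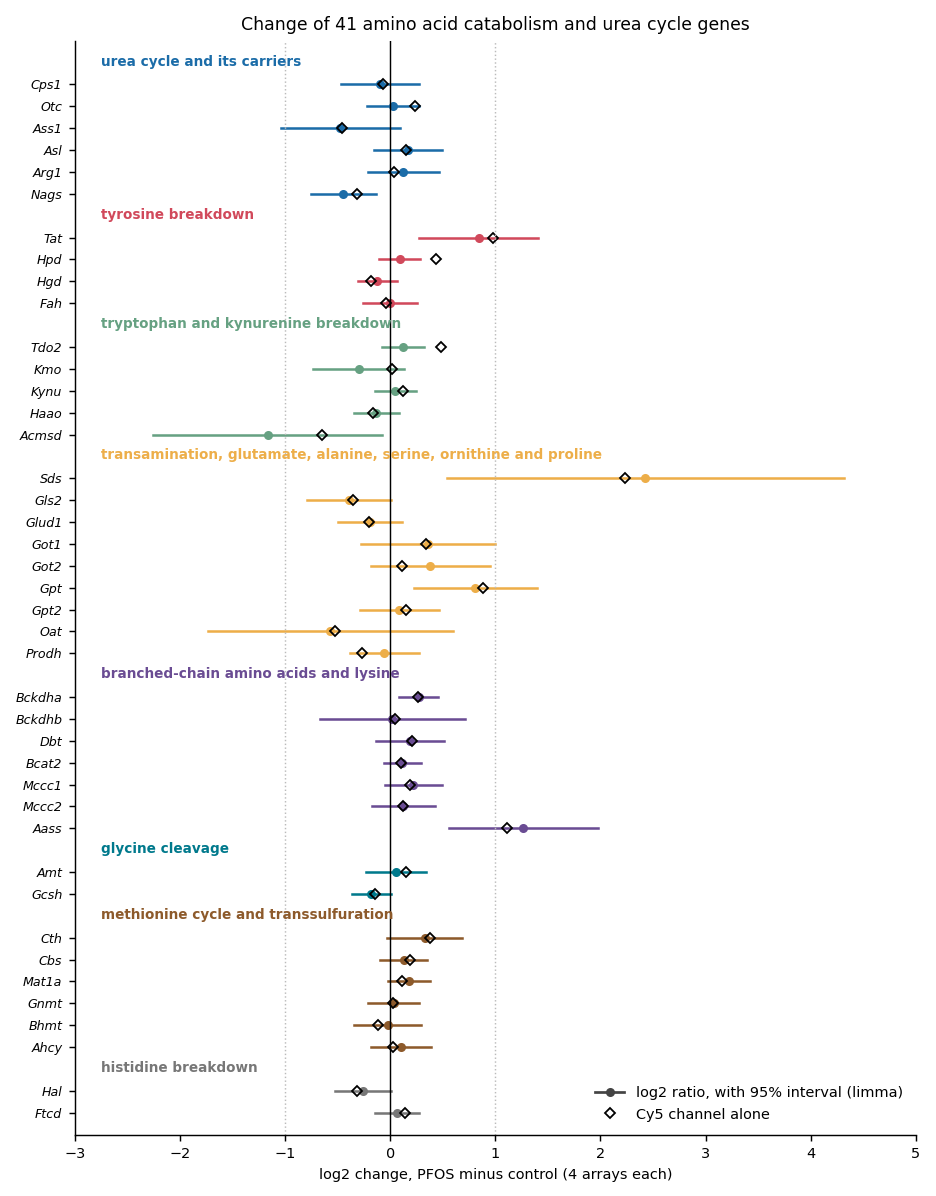
Change of the 41 tested members, PFOS minus control in log2 units, with the log2 ratio as filled circles with 95% intervals from limma and the Cy5 channel alone as open diamonds, 4 arrays a group and colours for the role groups. Most members lie near 0, and the intervals of 7 members reach past the dotted lines at 2-fold.

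The liver identity of the samples showed in 14 of 14 hepatocyte markers, each well above background on all 8 arrays. Of these, Ahsg was called lower in PFOS rats in the ratio, where 2.14% of all genes were. In Cy5, Ahsg and Apoa1 were called lower, against 2.34% of all genes. The reference channel moved too: 1 hepatocyte marker was called lower in Cy3, where 3 of 15204 genes were. The lowest Cy3 change of a hepatocyte marker was -1.38. No tested marker of macrophages, endothelium, stellate cells, bile duct, lymphocytes, neutrophils, erythroid cells or pancreas was called. Only 4 of 8 bile duct, 7 of 11 lymphocyte, 2 of 6 neutrophil and 2 of 6 pancreas markers were tested. The summed Cy5 signal of the hepatocyte markers was 2394010 to 2484000 units in control and 2174350 to 2346260 in PFOS rats, every PFOS rat below every control rat. Such a sum is of unlogged signal, so the brightest markers weigh most in it. Marker by marker in Cy5, 7 of the 14 lay above 0 and 7 below, with a median log2 change of -0.01 and a lowest of -1.77. That of the 5 tested endothelial markers (Stab1, Stab2, Tek, Clec4g and Vwf were not tested) was 9222 to 15995 units in control and 6939 to 9798 in PFOS rats, and that of the 12 tested macrophage markers 43106 to 71827 and 37533 to 58960. Erythroid markers summed to 96503 to 243979 units in control and 112958 to 141124 in PFOS rats. The 4 tested bile duct markers summed to 935 to 1166 units in control and 1158 to 1389 in PFOS rats. Those of stellate cells summed to 14338 to 17930 and 13740 to 15567. In the ratio 9 of 14 hepatocyte, 5 of 5 endothelial, 11 of 12 macrophage and 5 of 5 erythroid markers lay below 0. So did 7 of 11 stellate, 4 of 7 lymphocyte and 2 of 2 neutrophil markers, and 7950 of all 15204 genes. All 4 tested bile duct and 2 tested pancreas markers lay above 0. An unadjusted limma p under 0.05 was seen for 3 hepatocyte, 3 endothelial, 1 macrophage, 2 stellate and 1 bile duct markers, against 19.9% of all genes. The part of these cell types in the members' values was not tested. Between 50.4% and 59.1% of probes were well above background in Cy5 on each array, and no spot was marked saturated. The arrays shared 1 slide, with 2 of each group in each slide row.

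None of the 6 tested genes of the urea cycle and its carriers was called in the ratio or in Cy5. Cps1, which makes carbamoyl phosphate from ammonia in the mitochondrion, changed by -0.10 on the log2 scale (SE 0.16, 95% interval -0.47 to 0.27). Arg1, arginase, which releases urea, gave 0.12 (interval -0.22 to 0.46), and Asl, argininosuccinate lyase, 0.17 (interval -0.16 to 0.49). The intervals of these 3 enzymes lie within 1.5-fold in either direction. Ass1, argininosuccinate synthase, gave -0.47 (interval -1.04 to 0.09, adjusted p = 0.332), and its log2 ratio was 3.45 to 4.50 in control and 3.26 to 4.01 in PFOS rats.

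Nags makes N-acetylglutamate, the obligatory activator of carbamoyl phosphate synthetase. Its log2 ratios were 6.45, 6.29, 6.12 and 6.23 in control rats 1 to 4 and 6.12, 5.53, 5.98 and 5.69 in PFOS rats 1 to 4. Every PFOS rat lay below every control rat, although control 3 and PFOS 1 were almost level. The change was -0.45 (SE 0.14), or 1.36-fold lower, with an adjusted p of 0.115, and in Cy5 it was -0.32 (SE 0.09, adjusted p = 0.0808). Neither value passed the threshold.

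Otc, ornithine transcarbamylase, joins carbamoyl phosphate to ornithine. Log2 ratios of Otc were 8.82, 9.03, 8.80 and 8.94 in control and 9.04, 8.63, 9.04 and 8.99 in PFOS rats, so the groups overlapped. The ratio's change was 0.03 (SE 0.11, interval -0.23 to 0.28). In Cy5 the values were 13.91, 14.00, 14.09 and 14.09 in control and 14.30, 14.35, 14.14 and 14.26 in PFOS rats, without overlap, with a change of 0.24 (SE 0.08, adjusted p = 0.114). The reference channel moved by 0.09 at this probe.

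Tyrosine breakdown starts with Tat, tyrosine aminotransferase, long used as a marker of glucocorticoid action in liver. Tat log2 ratios were 5.32, 4.72, 4.11 and 4.34 in control and 5.32, 5.31, 5.32 and 5.89 in PFOS rats. Control 1 was as high as 3 of the PFOS rats, and the other control rats were lower than all of them. The change was 0.84 (SE 0.25, interval 0.28 to 1.41), or 1.79-fold, with an adjusted p of 0.108. In Cy5 it was 0.98 (SE 0.27), or 1.97-fold, with an adjusted p of 0.0729. With 1 rat left out the ratio's change ran from 0.67 (adjusted p = 0.216, without control 3) to 1.08 (adjusted p = 0.031, without control 1), and that of Cy5 from 0.81 (adjusted p = 0.122, without PFOS 4) to 1.22 (adjusted p = 0.0216, without control 1). Control 1 was the only rat whose absence let Tat pass. In slide row 1 alone the ratio's change was 0.30 and in row 2 1.39.

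The later enzymes of the route had narrower intervals. Hgd, homogentisate dioxygenase, had log2 ratios of 5.38, 5.49, 5.49 and 5.35 in control and 5.24, 5.21, 5.44 and 5.33 in PFOS rats. PFOS 1, 2 and 4 were below all control rats and PFOS 3 was among them. Its change was -0.12 (SE 0.08, interval -0.31 to 0.06), and in Cy5 it was -0.19 (SE 0.07, adjusted p = 0.155) with no overlap between the groups, at 14.43 to 14.53 in control and 14.22 to 14.39 in PFOS rats. Hpd, the dioxygenase acting just before Hgd, changed by 0.09 (interval -0.11 to 0.29), and Fah, the last enzyme, by -0.00 (interval -0.26 to 0.25).

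Tryptophan is opened by Tdo2, the liver's tryptophan dioxygenase. Tdo2 log2 ratios were 5.91, 6.09, 5.73 and 5.99 in control and 6.12, 6.01, 6.03 and 6.04 in PFOS rats. Every PFOS rat but 1 lay within the control range, and the change was 0.12 (SE 0.09, interval -0.08 to 0.32). In Cy5 the values were 14.56, 14.20, 14.28 and 14.58 in control and 15.18, 14.96, 14.82 and 14.58 in PFOS rats, a change of 0.48 (SE 0.14, adjusted p = 0.0891). The Cy3 value of this probe differed by 0.36 between the groups, the largest difference of the reference channel among the members, and that difference was not called. With 1 rat left out the Cy5 change ran from 0.38 (adjusted p = 0.185, without PFOS 1) to 0.58 (adjusted p = 0.0414, without PFOS 4), which alone passed, and it was 0.69 in slide row 1 and 0.27 in row 2.

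Kmo, Kynu and Haao act further along the tryptophan route. Kmo, the monooxygenase, changed by -0.30 in the ratio (interval -0.73 to 0.13) and 0.01 in Cy5 (interval -0.19 to 0.22). Its ratio in PFOS 3 was 3.87, against 4.41 to 4.91 on the other arrays. The Cy3 value there was 7.18, against 6.52 to 6.65 elsewhere, while Cy5 was 9.41, against 9.44 to 9.76. Kynu, kynureninase, gave 0.05 (interval -0.15 to 0.24), and Haao, which forms the precursor of quinolinate, -0.13 (interval -0.35 to 0.08).

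Acmsd diverts that precursor away from quinolinate and nicotinamide dinucleotide synthesis and is known to be lowered by PPARα agonists in rat liver. Acmsd log2 ratios were 3.13, 3.05, 3.90 and 2.0 in control and 3.17, 1.42, 1.23 and 1.59 in PFOS rats. PFOS 2, 3 and 4 lay below every control rat, while PFOS 1 was above 3 of them. The change was -1.17 (SE 0.48, interval -2.25 to -0.08), or 2.25-fold lower, with an adjusted p of 0.218. Cy5 gave -0.65 (SE 0.25, adjusted p = 0.191). With slide column as a block the Cy5 change of Acmsd had an adjusted p of 0.0192. With 1 rat left out it ran from -0.85 (adjusted p = 0.104, without PFOS 1) to -0.44 (adjusted p = 0.355, without control 3) and never passed. The ratio's change was -1.79 with processed signals.

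**Figure D2:**
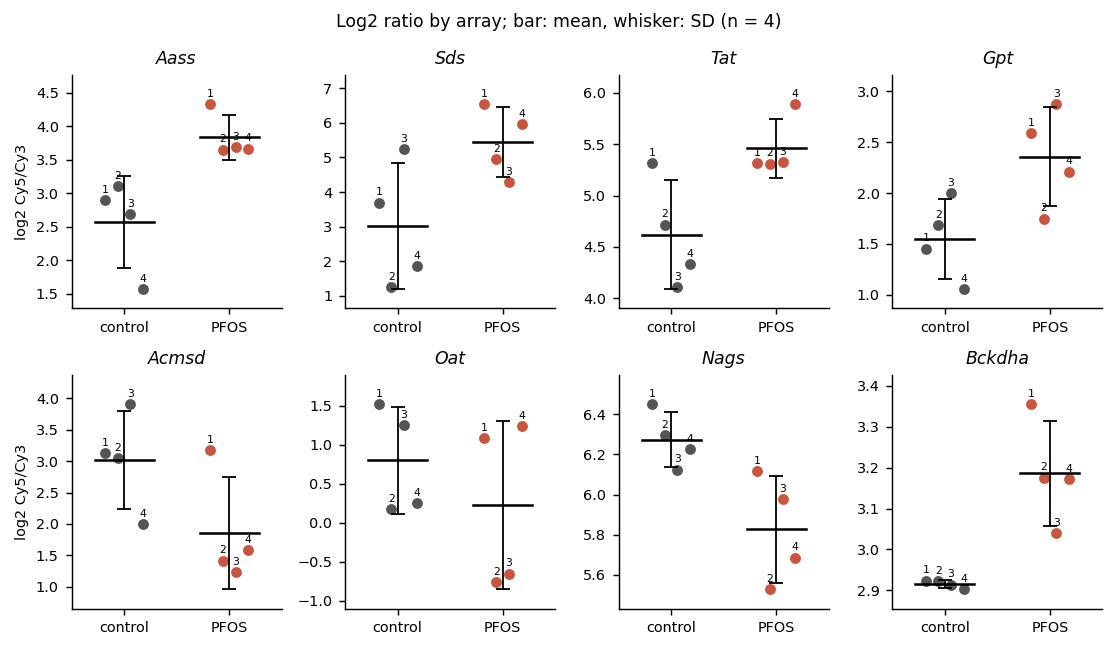
Log2 ratio of Cy5 to Cy3 in each rat for 8 members, with control in grey, PFOS in red, the replicate number at each point, the bar at the mean and the whisker at 1 SD (n = 4). Aass, Nags and Bckdha show no overlap between the groups, whereas 1 control rat of Sds reaches 5.24, above 2 of the PFOS rats.

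Serine dehydratase, Sds, turns serine into pyruvate for gluconeogenesis and is a periportal gene. Its log2 ratios were 3.69, 1.26, 5.24 and 1.86 in control and 6.54, 4.96, 4.29 and 5.97 in PFOS rats. Control 3 was higher than PFOS 2 and 3, and the other control rats were below every PFOS rat. The change was 2.43 (SE 0.84), or 5.37-fold with an interval of 1.45 to 19.9-fold, and the adjusted p was 0.154. It was the largest change of a member in the ratio, and the widest interval. Cy5 gave 2.23 (SE 0.65, adjusted p = 0.092). With 1 rat left out the ratio's change ran from 1.84 (without control 2) to 3.17 (without control 3), and that of Cy5 from 1.79 (adjusted p = 0.172, without control 2) to 2.81 (adjusted p = 0.0266, without control 3), which alone passed. The ratio's change was 1.32 with processed signals and 1.72 with median centring, and 3.27 in slide row 1 and 1.58 in row 2, so its size was not well fixed.

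Alanine aminotransferase, Gpt, links alanine to pyruvate. Gpt log2 ratios were 1.45, 1.68, 2.0 and 1.06 in control and 2.59, 1.75, 2.87 and 2.21 in PFOS rats. PFOS 2 lay below control 3, and the other PFOS rats were above all control rats. The change was 0.81 (SE 0.26, interval 0.22 to 1.39), or 1.75-fold, with an adjusted p of 0.131, and in Cy5 0.88 (SE 0.28, adjusted p = 0.113). With 1 rat left out the Cy5 change ran from 0.69 (adjusted p = 0.21, without PFOS 3) to 1.10 (adjusted p = 0.0483, without PFOS 2), which alone passed. The mitochondrial form Gpt2 changed by 0.08 (interval -0.29 to 0.46).

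The remaining enzymes of ammonia release and transamination were not called in either channel. Gls2, the liver glutaminase, changed by -0.39 (SE 0.18, adjusted p = 0.259) and Glud1, glutamate dehydrogenase, by -0.19 (interval -0.50 to 0.12). Got1, the cytosolic aspartate aminotransferase, gave 0.36 (interval -0.28 to 0.99). Prodh, proline dehydrogenase, had 2 probes with changes of -0.06 and -0.28, neither of which was called, against 3.74% of all kept probes.

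Got2 and Oat were singled out after their values were seen. Got2, the mitochondrial aspartate aminotransferase, had a ratio of 3.28 in PFOS 2 and 1.82 to 2.19 on the other arrays. The Cy3 value there was 11.66, against 12.71 to 12.79 elsewhere, while Cy5 was 13.18, inside the range of the other arrays at 12.85 to 13.23. The ratio's change was 0.38 (interval -0.18 to 0.95) and that of Cy5 0.11 (interval -0.09 to 0.31). Oat, ornithine aminotransferase, a perivenous gene, had ratios of 1.52, 0.18, 1.25 and 0.26 in control and 1.08, -0.76, -0.65 and 1.24 in PFOS rats. Each group held 2 high and 2 low rats, and the change was -0.57 with an interval of -1.74 to 0.60.

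Lysine breakdown begins with Aass, the mitochondrial aminoadipic semialdehyde synthase. Aass log2 ratios were 2.90, 3.11, 2.70 and 1.57 in control and 4.33, 3.65, 3.69 and 3.67 in PFOS rats. All PFOS rats lay above all control rats, control 4 was the lowest and PFOS 1 the highest. The change was 1.27 (SE 0.31), or 2.41-fold with an interval of 1.48 to 3.92-fold, and its adjusted p of 0.0599 was the smallest among the members in the ratio. Without control 4, the low control rat, the change was 0.94 and the adjusted p 0.0413.

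In the liver channel the values of Aass were 8.18, 8.28, 8.10 and 7.46 in control and 9.27, 9.05, 9.10 and 9.05 in PFOS rats. The PFOS rats were closely spaced there, and the lowest stood above the highest control rat by more than the whole spread of the PFOS group. Aass rose by 1.11 (SE 0.17) in Cy5, or 2.17-fold with an interval of 1.67 to 2.80-fold (adjusted p = 0.0057). The reference channel at this probe moved by 0.03. Within slide row 1 the Cy5 change was 0.93 (adjusted p = 0.0634) and within slide row 2 1.30 (adjusted p = 0.184), with 2 rats of each group in each row. With Cy5 taken after loess and Aquantile the change was 1.22 (adjusted p = 0.05001, just over the threshold).

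Branched-chain amino acids are first transaminated by Bcat2 and then oxidised by the branched-chain ketoacid dehydrogenase, whose parts are Bckdha, Bckdhb and Dbt. With Mccc1 and Mccc2, the subunits of the leucine pathway's carboxylase, and with Aass, all 7 changes in this group were above 0 in the ratio and in Cy5, with a median of 0.19 in both. That of Bckdhb, the smallest at 0.02, turned to -0.02 with array weights and to between -0.08 and -0.16 without control 2, control 4, PFOS 1 or PFOS 2, and it was 0.59 in slide row 1 and -0.55 in row 2. The change of Dbt in the ratio was -0.04 in row 1 and 0.42 in row 2. None of the 6 branched-chain enzymes was called in the ratio or in Cy5.

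Bckdha log2 ratios were 2.92, 2.92, 2.91 and 2.90 in control and 3.35, 3.18, 3.04 and 3.17 in PFOS rats. The control rats were nearly equal and every PFOS rat was higher, by a change of 0.27 (SE 0.08, interval 0.09 to 0.46), or 1.21-fold, with an adjusted p of 0.114. In Cy5 the change was 0.26 (SE 0.08, adjusted p = 0.123), again without overlap. Mccc1 gave 1.47, 1.77, 2.03 and 1.59 in control and 2.04, 1.94, 1.85 and 1.89 in PFOS rats, with control 3 above 3 of the PFOS rats and a change of 0.22 (SE 0.12, interval -0.05 to 0.49). Dbt changed by 0.19 (interval -0.14 to 0.51), Mccc2 by 0.13 (interval -0.17 to 0.43), Bcat2 by 0.11 (interval -0.06 to 0.29) and Bckdhb by 0.02 (interval -0.67 to 0.71).

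The glycine cleavage system was represented by Amt, its aminomethyltransferase, and Gcsh, its lipoyl carrier. Amt log2 ratios were 2.32, 2.10, 2.06 and 1.97 in control and 2.20, 2.44, 1.89 and 2.12 in PFOS rats, overlapping throughout, with a change of 0.05 (SE 0.13, interval -0.24 to 0.34). Gcsh gave 2.40, 2.19, 2.31 and 2.42 in control and 2.14, 2.24, 2.05 and 2.18 in PFOS rats. Only control 2 lay below the highest PFOS rat. The change of Gcsh was -0.18 (SE 0.08, interval -0.36 to 0.01, adjusted p = 0.267), and its second probe gave -0.16.

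In the methionine cycle, Mat1a makes the methyl donor S-adenosylmethionine, Gnmt and Ahcy carry it on to homocysteine, Bhmt returns homocysteine to methionine, and Cbs and Cth lead it to cysteine. Cth log2 ratios were 4.94, 5.29, 5.58 and 5.44 in control and 5.82, 5.37, 5.85 and 5.52 in PFOS rats. PFOS 1 and 3 were above all control rats, and the change was 0.33 (SE 0.16, interval -0.03 to 0.68, adjusted p = 0.286). Mat1a gave 6.53, 6.70, 6.42 and 6.53 in control and 6.83, 6.66, 6.78 and 6.61 in PFOS rats, with control 2 above 2 of the PFOS rats, a change of 0.17 (SE 0.09, interval -0.03 to 0.38). The other members had changes of 0.13 for Cbs, 0.10 for Ahcy, 0.03 for Gnmt and -0.03 for Bhmt. All intervals in this group but that of Cth were within 1.5-fold.

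Histidine breakdown starts with Hal, histidine ammonia-lyase, another periportal gene. Hal log2 ratios were 5.20, 5.21, 5.26 and 5.32 in control and 4.79, 4.81, 5.30 and 5.05 in PFOS rats. PFOS 1, 2 and 4 were below all control rats and PFOS 3 was near the highest. Its change was -0.26 (SE 0.12, interval -0.52 to 0.01, adjusted p = 0.263), with -0.32 in Cy5 (adjusted p = 0.186). Ftcd, which passes the last carbon to folate, gave 6.60, 6.57, 6.30 and 6.45 in control and 6.69, 6.54, 6.49 and 6.45 in PFOS rats, overlapping, with a change of 0.06 (SE 0.09, interval -0.15 to 0.28).

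The reference channel holds the same RNA on every array, so a difference between the 2 groups there is not a difference of that RNA. The cause of such differences was not tested. No member was called in Cy3 (limma), where 12 of 15204 genes were called (0.0789%), and 1 member had an unadjusted p under 0.05, against 3.84% of all genes. Cy3 changes of members ran from -0.28 for Prodh to 0.36 for Tdo2, with 0.34 for Sds and 0.33 for Hpd. At the Sds probe, Cy3 was highest in PFOS 1 at 6.97 and lowest in control 2 at 6.13, the same rats in which Cy5 was highest at 11.42 and lowest at 6.82. At the Hpd probe the Cy5 change was 0.44 (SE 0.16, adjusted p = 0.162), against 0.09 in the ratio.

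**Figure D3:**
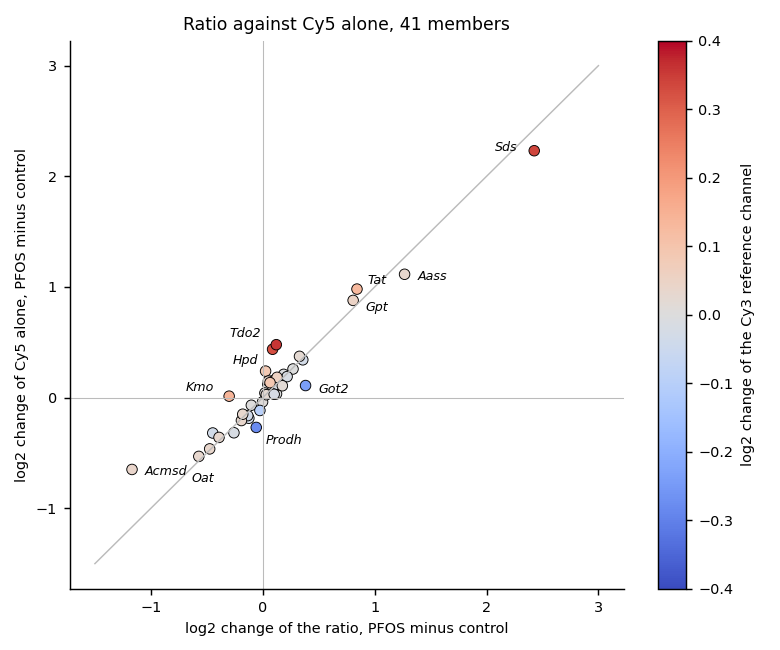
Change of each of the 41 members in the log2 ratio (horizontal) against the Cy5 channel alone (vertical), PFOS minus control in log2 units, with the line of equal change and the Cy3 change as colour. Tdo2 and Hpd lie above the line with Cy3 changes of 0.36 and 0.33, and Got2 below it at -0.24.

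The members varied more between rats of 1 group than most genes did. Their median SD within a group was 0.21 log2 units, against 0.16 for all genes, and 10 of 41 lay above the 90th percentile of all genes and 7 above the 95th. Sds had an SD of 1.47, which 0.138% of genes exceeded, Oat 0.90 (0.704%) and Acmsd 0.84 (0.888%). At the other end, 93.2% of genes varied more than Bcat2, 87.9% more than Hgd and 87.4% more than Bckdha. Bcat2 was also dim, with Cy5 signals of 162 to 288 units before background correction. Whether that narrowed its SD was not tested. The widest intervals above belong to the members of large spread, so the size of a difference that could be called differed between members.

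**Figure D4:**
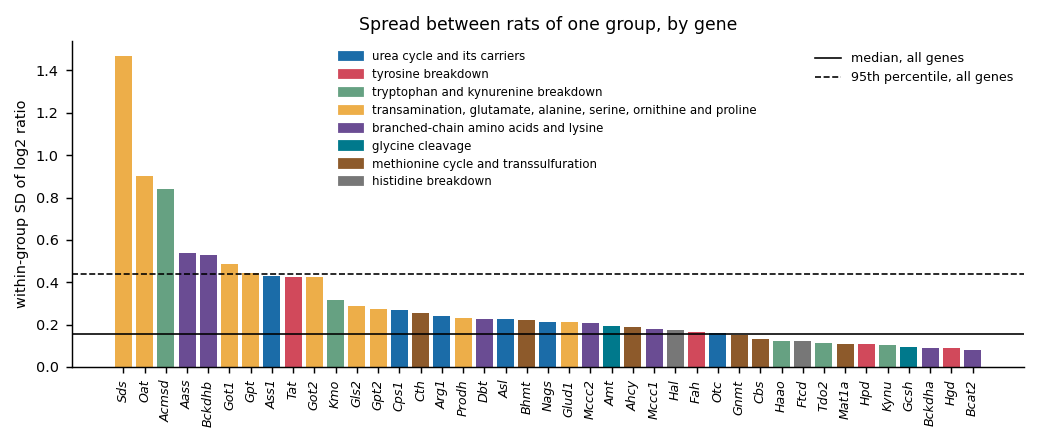
SD of the log2 ratio among rats of the same group (pooled over both groups, n = 4 each) for the 41 tested members, coloured by role, with the median of all genes (solid line, 0.16) and their 95th percentile (dashed, 0.44). Sds, Oat and Acmsd stand apart at 1.47, 0.90 and 0.84.

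Beyond the members, 58 of 70 other amino acid breakdown enzymes were tested in the ratio, of which 2 rose and 1 fell, and 55 did not pass. That is near the share called among all genes (3.97%, with 1.83% higher and 2.14% lower). Gcdh, glutaryl-CoA dehydrogenase of lysine and tryptophan breakdown, had ratios of 3.80, 3.71, 3.81 and 3.64 in control and 4.84, 4.54, 4.80 and 4.39 in PFOS rats. Every PFOS rat was above every control rat, and Gcdh rose by 0.90 (SE 0.11, adjusted p = 0.00376), or 1.87-fold. Hibch, a hydrolase of valine breakdown, rose from 1.18 to 1.33 in control to 1.83 to 2.05 in PFOS rats, by 0.68 (SE 0.08, adjusted p = 0.00376). Hao1, the peroxisomal glycolate oxidase that feeds glyoxylate to glycine, fell by 0.45 (SE 0.10, adjusted p = 0.0375), and its Cy5 change of -0.29 had an adjusted p of 0.142. Dhtkd1, a dehydrogenase of lysine and tryptophan breakdown, rose in Cy5 by 0.35 (adjusted p = 0.0191), with 0.21 in the ratio (adjusted p = 0.322).

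**Figure D5:**
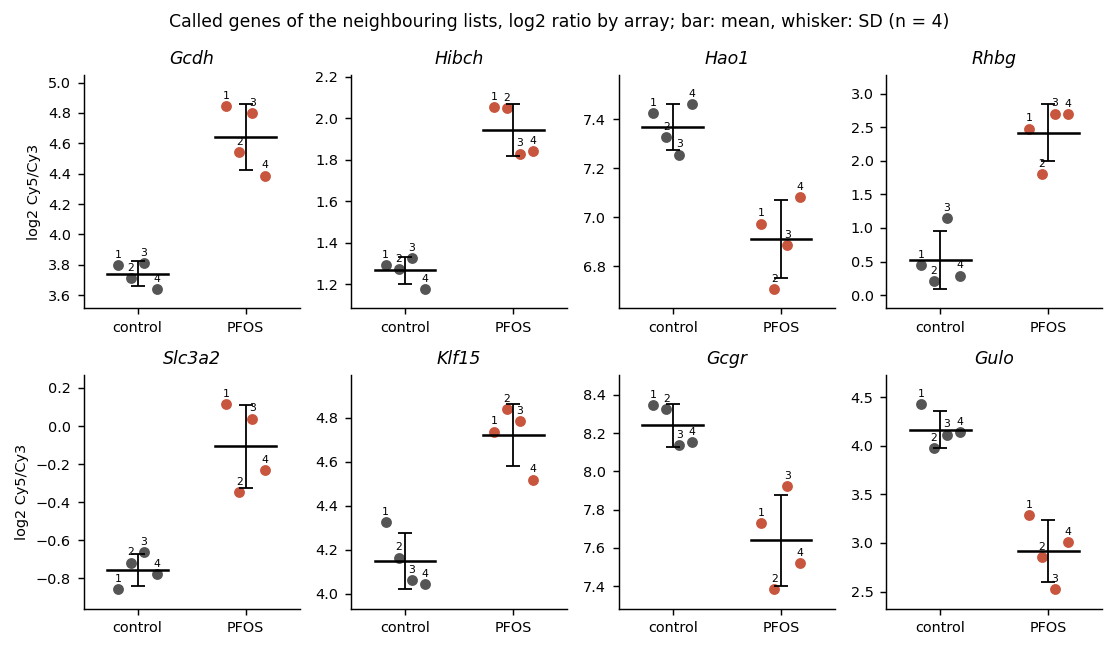
Log2 ratio in each rat for 8 called genes outside the members, control in grey and PFOS in red, with replicate numbers, the bar at the mean and the whisker at 1 SD (n = 4). The genes were picked because they were called on these same values. Control and PFOS rats do not overlap in any of the 8 panels, against 12.8% of all genes, and Rhbg has the largest change at 1.90. Gcgr passed in 7 and Hao1 in 6 of 21 alternatives.

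Of 35 transporters of amino acids, ammonia and urea, 23 were tested, 2 rose, 2 fell and 19 did not pass, where 1.83% of all genes rose and 2.14% fell. Rhbg, an ammonia channel of perivenous hepatocytes, had ratios of 0.44, 0.20, 1.15 and 0.29 in control and 2.48, 1.80, 2.70 and 2.69 in PFOS rats. The groups were well apart, and Rhbg rose by 1.90 (SE 0.25, adjusted p = 0.00455), or 3.72-fold. Slc3a2, the heavy chain of several amino acid exchangers, rose by 0.65 (SE 0.11, adjusted p = 0.0154). Aqp9, a channel for glycerol and urea, fell by 0.75 (SE 0.13, adjusted p = 0.0166), and Slc6a12, a betaine transporter, fell by 0.45 (SE 0.09, adjusted p = 0.0256).

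Regulators were tested in 27 of 30 cases, of which 1 rose, 3 fell and 23 did not pass, beside 3.97% called among all genes. Klf15, a transcription factor that drives amino acid breakdown in fasting, rose by 0.57 (SE 0.10, adjusted p = 0.0153), from 4.04 to 4.32 in control to 4.52 to 4.84 in PFOS rats. Gcgr, the glucagon receptor, fell by 0.60 in the ratio (SE 0.12, adjusted p = 0.0311) and by 0.85 in Cy5 (adjusted p = 0.00297), and its Cy3 change was -0.31. Fgfr4, a growth factor receptor of bile acid control, fell by 0.68 (SE 0.14, adjusted p = 0.035), and Atf5, a stress response transcription factor, fell by 0.54 (SE 0.12, adjusted p = 0.0488).

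Zonation markers were read because the urea cycle and Sds, Hal and Gls2 are periportal and Oat and glutamine synthetase perivenous. Of 15 periportal markers, which include members, 12 were tested, and 1 fell (beside 2.14% of all genes): Aldh1b1, an aldehyde dehydrogenase, by 0.94 (SE 0.18, adjusted p = 0.0219). In Cy5, Aldh1b1 and Cyp2f4 fell, where 2.34% of all genes were called lower. Of 16 perivenous markers, 15 were tested, and 1 rose and 1 fell, beside 1.83% and 2.14% of all genes. Rhbg was the higher one, and Gulo, the last enzyme of vitamin C synthesis, was lower by 2.37-fold (change -1.25, SE 0.16, adjusted p = 0.0043). In the ratio 8 of 12 periportal and 10 of 15 perivenous markers lay below 0, against 7950 of 15204 genes. An unadjusted limma p under 0.05 was seen for 5 and 7 of these markers, against 19.9% of all genes. Glul, glutamine synthetase, changed by -0.29 (SE 0.13, adjusted p = 0.236). Of the members in these lists none was called in the ratio or in Cy5. The calls of Gcdh, Hibch, Rhbg and Gulo held under every alternative processing and with each rat left out, and those of Slc3a2 and Klf15 with each rat left out. Over 21 alternatives Klf15 passed in 19, Slc3a2 in 20 and Aqp9 in 18, the last lost without PFOS 3. Aldh1b1 passed in 13, Fgfr4 in 11, Slc6a12 in 9, Gcgr in 7, Hao1 in 6 and Atf5 in 4, and each of these was lost without any of several single rats, Atf5 without any 1 of the 8. Each was also lost under some alternative processing. Gcgr and Hao1 were lost with no background subtraction, with normexp without offset and with processed signals. With processed signals Gcgr changed by -0.13 (limma adjusted p = 0.43) and Hao1 by -0.16 (adjusted p = 0.445).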

How the data were processed

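Each of 8 two-colour Agilent arrays carried the liver RNA of 1 rat, and the sample labels gave its diet. The authors deposited spot intensity values of both channels from Agilent Feature Extraction, version 10.7.3.1 in the submitters' processing notes. Per the file headers these are median signals and median local background, with processed signals beside them, and the scan resolution was 3 micrometres. The deposited value table holds log2 ratios whose centring is unknown. Its columns correlated at 0.995 to 0.997 with unsubtracted log2 Cy5/Cy3 values, which set its direction, and their medians were -0.061 to -0.048.

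Median signals were used where mean signals had been a possibility. Background was corrected with normexp (offset 50), ratios were normalized by loess within arrays with the 4259 control spots of 62976 at weight 0, outlier spots (733 to 991 per array) were dropped, and spots of a probe were averaged. A probe was kept where 4 or more of the 8 arrays had it well above background in Cy5 (16952 of 30367), and the brightest probe in Cy5 stood for a gene. Each channel alone was quantile normalized between arrays. Accessions, without versions, named 18004 probes by 15154 symbols (RefSeq, GRCr8). Groups were compared with limma 3.58.1 (lmFit and eBayes, two-sided) in R 4.3.3, with the data.table package (version 1.17.8), and p-values were adjusted by Benjamini-Hochberg over 15204 genes and features. Changes are PFOS minus control, and folds are 2 to that power. Precision is limited by having 4 arrays in each group, and no list was tested as a set.

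Members and lists were chosen with earlier results of these data known. Values of every rat are given for called members, then for up to 2 more of each role group by smallest p in the ratio or Cy5. Of the other lists, called genes are named, up to 4 by p in the ratio and 2 in Cy5. Values of every rat are shown for only some of those genes. The steps were tested on simulated data. Alternatives changed the background correction (none, or normexp without offset), took the software's processed signals or the authors' table, centred on the median or scaled between arrays, moved the filter on dim probes, averaged the probes of a gene, used array weights or trended and robust eBayes, blocked on slide row or slide column, moved the threshold, and dropped each array in turn. For the channels alone they also included median scaling and, for Cy5, the channel after loess and Aquantile. The 2 slide rows alone, and the alternatives for genes outside the members, were added after the data were seen. Positions on the files' older genome build were not used here.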

Additional observations from a re-analysis of the deposited data

Results flagged for a closer look

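The groups of 4 rats were examined for the log2 ratios of the 41 tested members and for Aass in Cy5, 84 groups in all. In 6 of them (7.14%), all in the ratio, 1 rat lay far from the others by Dixon's test at the 95% level. Chance alone flags about 1 in 20 such groups. Aass was 4.33 in PFOS 1 and 3.65 to 3.69 in the other PFOS rats. Tat was 5.89 in PFOS 4 and 5.31 to 5.32 in the others. Otc was 8.63 in PFOS 2 and 8.99 to 9.04 in the others, and Hpd 7.35 in the same rat and 7.61 to 7.65 in the others. Got2 was 3.28 in PFOS 2 and 2.03 to 2.19 in the other PFOS rats, and 1.82 in control 1 against 2.08 to 2.12 in the other control rats. Of these 6 values, 3 belong to PFOS 2.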

How the results depend on the processing

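No paired analysis was possible because the labels give the rats no shared replicate numbers. Slide column as a block sets 1 control array beside 1 PFOS array by position on the slide only. Each count here is that of a new fit and does not say which genes stayed. Genes called in the ratio numbered 604, and 239 with median centring, 268 with slide column as a block, 93 in slide row 1 alone, 32 in slide row 2 alone, 344 with a change of at least 1.5-fold and 1055 at an adjusted p under 0.1, and it was 350 to 519 with 1 rat left out. Members called in the ratio were 0, and they were 1 (Aass each time) with processed signals, median centring, scaling between arrays, slide row as a block and an adjusted p under 0.1. With 1 rat left out there were 0 to 1 (Tat without control 1, Aass without control 4). In Cy5 the 1 member (Aass) became 0 after loess and Aquantile and in either slide row alone, 2 (Aass and Acmsd) with slide column as a block, and 1 to 2 with 1 rat left out. Added there were Tat without control 1, Sds without control 3, Gpt without PFOS 2 and Tdo2 without PFOS 4. The Aass change ran from 0.94 to 1.45 in the ratio over these settings, slide rows aside, and from 0.93 to 1.36 in Cy5. Called genes of the other lists numbered 13, and 5 with median centring, 7 with scaling between arrays, 8 in the authors' value table, 6 with slide column as a block and 7 to 12 with 1 rat left out. Aqp9 was lost without PFOS 3 (adjusted p = 0.0523), and the largest adjusted p with 1 rat left out was 0.0941 for Hao1, 0.0693 for Slc6a12, 0.0837 for Gcgr, 0.0888 for Fgfr4, 0.112 for Atf5 and 0.0665 for Aldh1b1. The cause of these changes was not tested. Over single genes, 1086 of 1174 comparisons in the ratio and 691 of 697 in Cy5 kept their side of the threshold. A change of sign of a value that was never called was not counted, and several members changed sign in this way. Most of these comparisons were of members, which were not called in the ratio and could lose no call there. The 82 comparisons in the ratio that lost a call were all among the 13 called genes of the other lists, and 6 comparisons gained one. With so few arrays the intervals of Sds, Oat and Acmsd span more than 4-fold, so differences of their size could be missed.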

Other observations

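Among genes of lysine breakdown, put together after their values were seen, only Gcdh was called in the ratio (adjusted p = 0.00376, beside 0.0599 for Aass and 0.322 for Dhtkd1). In Cy5, Aass, Gcdh and Dhtkd1 were called higher, where 2.39% of all genes were. Chosen in this way, the genes are a description and no result on the route. Aadat, the aminotransferase between Aass and Dhtkd1, changed by 0.10 in the ratio (SE 0.09, adjusted p = 0.561) and -0.22 in Cy5 (adjusted p = 0.307), and Aldh7a1 was not tested. Hykk, the hydroxylysine kinase, changed by -0.33 in the ratio (adjusted p = 0.418).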
